A study of Rattus norvegicus with 16 samples.

Results

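The collagen genes of the rat gustatory cortex were taken as every probe set that the array annotation pairs with exactly 1 gene whose symbol has the form of a collagen chain, such as Col1a1. The rule found 27 probe sets of 25 genes among 15209 probe sets paired with 1 gene, which cover 14497 genes. By class they were 10 fibrillar collagens, 3 basement membrane collagens and 12 others. Where a gene had several probe sets the brightest one stands for it, which concerned Col6a4 alone, with 3 probe sets. A further 20 rat collagen genes, among them Col4a2, Col6a1, Col6a2, Col6a3, Col15a1 and Col18a1, are not named in the annotation used and were not analysed here.

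Collagens are triple helices wound from 3 chains. The fibrillar types I, III and V form the fibres of connective tissue, which in the brain lie mainly in the meninges and around larger vessels, where fibroblasts make them. Type IV collagen is made by endothelial and mural cells among others and forms the sheet of the basement membrane that surrounds every brain vessel, while fibril-associated chains such as Col12a1 and Col14a1 decorate the fibres.

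Messenger RNA was measured on 16 arrays, each from the gustatory cortex (the taste area of the insular cortex) of a different male Wistar Hola rat, and there were 4 groups of 4 rats. All rats had been kept on restricted water and trained to drink over 3 days, and on the last day drank either water, a familiar taste, or 0.1% saccharin, a taste they had not met before. The cortex was taken 1 h or 3 h after drinking, so that the groups were saccharin 1 h, saccharin 3 h, water 1 h and water 3 h. The labels give an age of 2 months and the study's methods 10 to 16 weeks. The comparisons asked whether messenger RNA differed with time after drinking, with taste, and whether the difference with time depended on taste. All levels are log2 values from robust multi-chip averaging (RMA), and a difference of 1 is a 2-fold change. Changes with time are 1 h minus 3 h and changes with taste are saccharin minus water. Arrays C365 to C372 are all 3 h arrays and C373 to C380 all 1 h arrays, and a pattern along the array numbers therefore cannot be told apart from time. In pieces of tissue, fewer cells of a type and less RNA per cell cannot be told apart.

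The median over named probe sets was 6.11 to 6.18 per array, and the lowest correlation between 2 arrays was 0.996. Within the collagens, water 1 h array C378 gave the highest value of 11 of 25 genes, against 7.89% of all probe sets tested. Water 1 h array C374 gave the lowest value of 7 of 25, against 6.58% of all probe sets. Saccharin 3 h array C372 gave the lowest value of 5 of 25, against 10.9%, and Col1a1, Col1a2 and Col3a1 were among these 5. Several results that rest on C378 or C372 are given below with and without that array, but not all of them.

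Of the 25 genes, 20 have an upstream sequence in the RefSeq table used (build GRCr8). Col1a2, the chain with the largest estimated change with time of the 25, and Col4a1, the vessel chain whose estimate was near 0, are shown over the same window, the 110 bases from 250 to 141 bases before the annotated start, on the plus strand. Capitals mark 2 short motifs, searched on both strands, the CCAAT box (CCAAT, or ATTGG when it lies on the opposite strand) and the TATA box (TATAAA). The Col1a2 window is chr4:33518307-33518416 and the Col4a1 window chr16:84885347-84885456.
Col1a2: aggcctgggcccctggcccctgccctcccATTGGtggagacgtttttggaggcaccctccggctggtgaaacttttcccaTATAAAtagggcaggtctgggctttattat
Col4a1: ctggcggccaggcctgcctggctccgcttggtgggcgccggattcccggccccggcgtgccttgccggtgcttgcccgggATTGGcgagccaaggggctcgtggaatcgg
Both windows held an opposite-strand CCAAT box, 221 bases before the start in Col1a2 and 170 in Col4a1, and Col1a2 also held a TATA box 170 bases before it. Over the 250 bases before the start, a CCAAT box was present in 7 of 20 collagen promoters and 34.0% of 33469 promoters of all genes. A TATA box was present in 4 of 20 against 12.9%, and a GC box (GGGCGG) in 11 of 20 against 30.5%. The median GC content was 62% in the collagens and 51.2% in all promoters. A match describes these letters and is not a measured binding site. Col4a3 and Col4a4 lie head to head with 412 bases between their starts, and the 250-base windows share 88 bases.

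Averaged over both tastes, Col1a1, Col1a2 and Col3a1, the chains of fibrillar collagens I and III, stood 1.23- to 1.32-fold higher at 1 h than at 3 h. None of the 25 collagens passed the test across all genes, in which limma with Benjamini-Hochberg adjustment called 1.01% of probe sets. At an unadjusted p under 0.05, 4 of 25 collagens were higher at 1 h, all of them fibrillar, against 6.25% of all probe sets, and 0 of 25 were lower, against 5.77%. In no collagen did all 8 arrays at 1 h lie above all 8 at 3 h, against 0.237% of probe sets.

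Col1a1 codes for the main chain of type I collagen. After saccharin its log2 level was 7.19, 7.52, 7.36 and 7.56 on the 1 h arrays and 6.98, 7.19, 7.04 and 6.61 on the 3 h arrays. After water it was 7.13, 7.23, 7.53 and 7.56 at 1 h and 6.99, 7.21, 7.17 and 7.20 at 3 h. The 3 h arrays did not exceed 7.21 and 6 of the 8 arrays at 1 h did, with an overlap between 7.13 and 7.21. Over both tastes the change was 0.34 (standard error 0.083, 95% interval 0.16 to 0.51), or 1.26-fold, with adjusted p = 0.0617 in limma. An exact permutation test of the 8 arrays at each time gave p = 0.00373, two-sided, where the smallest that the design allows is 1.55e-04. This p, like those of Col1a2 and Col3a1 below, is not adjusted for the number of genes or for the choice of the gene.

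Col1a2 codes for the partner chain of Col1a1. Its log2 level after saccharin was 7.77, 7.98, 7.90 and 8.18 at 1 h and 7.46, 7.85, 7.496 and 6.79 at 3 h. After water it was 7.68, 7.76, 8.10 and 8.04 at 1 h and 7.47, 7.78, 7.60 and 7.78 at 3 h. The groups overlapped in both tastes, and C372, at 6.79, was the lowest of all 16 arrays. The change over both tastes was 0.40 (standard error 0.11), 1.32-fold, with adjusted p = 0.125 in limma and exact permutation p = 0.00451.

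Col3a1 codes for type III collagen, which is laid down with type I in soft tissue. Its log2 level after saccharin was 6.33, 6.55, 6.42 and 6.68 at 1 h and 5.96, 6.38, 6.26 and 5.65 at 3 h. After water it was 6.38, 6.31, 6.51 and 6.53 at 1 h and 6.12, 6.45, 6.23 and 6.32 at 3 h. The 1 h arrays ran from 6.31 to 6.68 and the 3 h arrays spread more widely, from 5.65 on C372 to 6.45. The change was 0.29 (standard error 0.086), 1.23-fold, with adjusted p = 0.132 in limma and exact permutation p = 0.00513.

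Single arrays decided on which side of the threshold these 3 genes fell. Without saccharin 3 h array C368, the 3 h array of that taste with the highest Col1a1, Col1a2 and Col3a1, all 3 passed, with adjusted p = 0.0361, 0.0370 and 0.0486 and changes of 0.38, 0.47 and 0.35. Without water 1 h array C373 or saccharin 1 h array C375, Col1a1 passed (adjusted p = 0.0333 and 0.0453). Without C372 the changes were 0.28, 0.29 and 0.23 (adjusted p = 0.0981, 0.129 and 0.180), and without C378 they were 0.30, 0.37 and 0.28 (adjusted p = 0.114, 0.185 and 0.195).

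**Figure D1:**
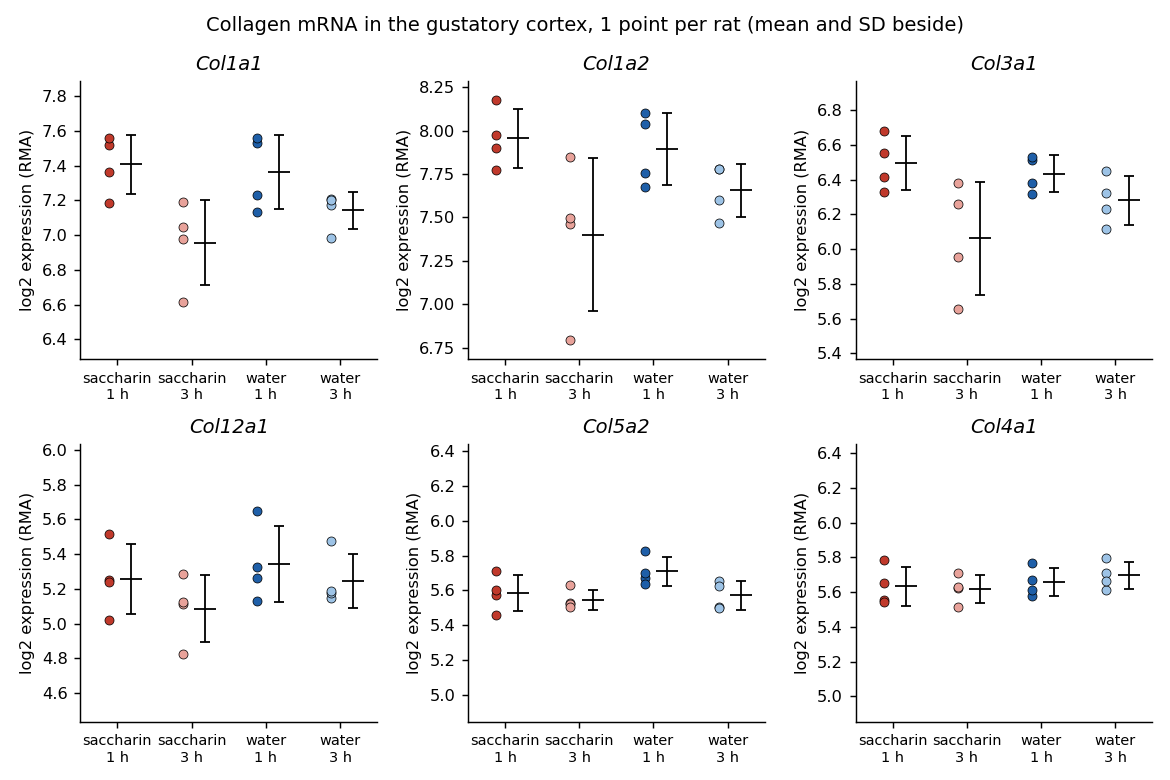
Log2 expression (RMA, vertical axes, each spanning 1.6 log2 units) of Col1a1, Col1a2, Col3a1, Col12a1, Col5a2 and Col4a1 in the 4 groups, with 1 point per rat and, to the right of the points, the mean and SD of the 4 rats. In the top row the 3 h arrays after saccharin reach lowest, with C372 at 6.61 for Col1a1, 6.79 for Col1a2 and 5.65 for Col3a1, while Col4a1 lies between 5.51 and 5.80 on all 16 arrays.

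Type V collagen, which joins type I in the core of its fibres, was represented by 3 chains. Col5a2, the fourth gene with an unadjusted p under 0.05, stood after saccharin at 5.46, 5.57, 5.71 and 5.60 at 1 h and 5.63, 5.53, 5.52 and 5.50 at 3 h. After water it stood at 5.67, 5.70, 5.64 and 5.83 at 1 h and 5.51, 5.65, 5.50 and 5.63 at 3 h. The tastes differed in appearance, since the 1 h arrays after saccharin reached both above and below the 3 h arrays, and after water only the lowest 1 h array lay under the highest 3 h array. The change was 0.090 (standard error 0.042, unadjusted p = 0.0488 in limma, adjusted p = 0.413).

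Col5a1 stood after saccharin at 5.75, 5.63, 5.70 and 5.78 at 1 h and 5.61, 5.58, 5.60 and 5.63 at 3 h. After water it stood at 5.59, 5.57, 5.58 and 5.74 at 1 h and 5.46, 5.64, 5.69 and 5.59 at 3 h. The times overlapped after water, and after saccharin they did not, with 5.630 the lowest level at 1 h and 5.626 the highest at 3 h. Over both tastes the change was 0.071 (standard error 0.039, adjusted p = 0.506 in limma). Col5a3 changed by 0.041 (standard error 0.042, adjusted p = 0.772), and by 0.020 without C378.

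Of the other fibrillar chains, Col2a1, the chain of cartilage type II collagen, had a change of 0.072 (standard error 0.039, adjusted p = 0.484). The levels ran from 5.44 to 5.71 at 1 h and from 5.42 to 5.60 at 3 h, with C378 highest. Col11a1 had a change of 0.020, Col11a2 of -0.0074 and Col27a1 of -0.076, each with an adjusted p over 0.5. The 10 fibrillar genes had a median change of 0.071 and 8 were above 0, beside a median of -1.15e-05 over all probe sets tested.

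The basement membrane chains had estimates near 0. Col4a1, which with Col4a2 makes the type IV collagen of vessel walls, stood after saccharin at 5.55, 5.54, 5.78 and 5.65 at 1 h and 5.71, 5.62, 5.51 and 5.63 at 3 h. After water it stood at 5.58, 5.67, 5.61 and 5.77 at 1 h and 5.80, 5.71, 5.61 and 5.67 at 3 h. The groups overlapped throughout, and the change was -0.012 (standard error 0.044, 95% interval -0.11 to 0.081, adjusted p = 0.955 in limma), an interval whose upper end lies below the estimates for Col1a1, Col1a2 and Col3a1. Without C378 the change of Col4a1 was -0.031. Col4a3 and Col4a4, chains of the type IV network known from the kidney glomerulus, had changes of 0.029 and 0.0037. The difference in change between classes was not tested.

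Among the 12 other collagens the median change was -0.0023, and 5 were above 0. Col12a1, a fibril-associated chain of dense connective tissue, stood after saccharin at 5.02, 5.25, 5.24 and 5.52 at 1 h and 5.11, 5.29, 5.12 and 4.82 at 3 h. After water it stood at 5.13, 5.26, 5.33 and 5.65 at 1 h and 5.15, 5.18, 5.19 and 5.48 at 3 h. C372 was again the lowest array and C378 the highest. The change was 0.13 (standard error 0.084, adjusted p = 0.579), and 0.082 without C378. After saccharin it was 0.17, and 0.082 without C372, and after water it was 0.096, and -0.0051 without C378.

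Col14a1, another fibril-associated chain, stood after saccharin between 4.02 and 4.20 at 1 h and between 3.92 and 4.15 at 3 h. After water it stood at 4.30, 3.84, 4.09 and 4.47 at 1 h and 3.98, 3.88, 4.10 and 4.05 at 3 h. The 4 water 1 h arrays included both the lowest, C374, and the highest, C378, of all 16. The change was 0.13 (standard error 0.070, adjusted p = 0.514), and 0.076 without C378. After water it was 0.17, and 0.072 without C378, and after saccharin 0.080, and 0.044 without C372.

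Col7a1, the chain of the anchoring fibrils under epithelia, had the lowest estimate of the 25, at -0.079 (standard error 0.045, adjusted p = 0.514). Its arrays ran from 5.06 to 5.39 at 1 h and from 5.24 to 5.39 at 3 h, and without C378, its highest array, 2 of 25 collagens, Col7a1 and Col27a1, had an unadjusted p under 0.05 and were lower at 1 h. The 3 probe sets of Col6a4 disagreed, with changes of 0.012 for the brightest and -0.051 and -0.11 for the other two, the last at unadjusted p = 0.0349 in limma (adjusted p = 0.360). Over all 25 genes the median change was 0.012, with 15 above 0, and over the 22 genes other than Col1a1, Col1a2 and Col3a1 it was 0.0074, with 12 above 0.

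Split by taste, the change with time was 0.45 for Col1a1, 0.56 for Col1a2 and 0.43 for Col3a1 after saccharin, or 1.37-, 1.47- and 1.35-fold. The standard errors were 0.12, 0.16 and 0.12 and the adjusted p-values in limma 0.157, 0.257 and 0.230. None of the 25 collagens passed after saccharin, against 0.348% of probe sets, and 3 were higher at an unadjusted p under 0.05, against 4.56%, with 0 lower, against 3.43%. The same 3 genes met the study's cut-off (unadjusted p of at most 0.05 and at least 1.25-fold) in the direction of higher at 1 h, against 0.598% of probe sets. Col5a1 was the 1 gene of 25 whose arrays did not overlap, against 2.69%, with a change of 0.11 (standard error 0.055, unadjusted p = 0.0577 in limma, adjusted p = 0.646). Exact permutation tests of 4 arrays against 4 gave p = 0.0571 for each of Col1a1, Col1a2 and Col3a1, where the smallest possible is 0.0286. Without C372 the 3 changes were 0.34, 0.35 and 0.30, the second of them lower by over 1.5 times.

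After water the same changes were 0.22, 0.24 and 0.15 (standard errors 0.12, 0.16 and 0.12), with adjusted p = 0.730, 0.807 and 0.844 in limma and exact permutation p = 0.20, 0.171 and 0.143. None of the 25 collagens passed, against 0.125% of probe sets. At an unadjusted p under 0.05, 1 was higher, against 3.67%, and 0 were lower, against 3.56%. That 1 gene was Col5a2, with 0.14 (standard error 0.060, unadjusted p = 0.0326, adjusted p = 0.623). Col2a1 had a change of 0.10 (adjusted p = 0.733), and 0.062 without C378. Col7a1 was at -0.099, and -0.15 without C378. No collagen had arrays that did not overlap with higher values at 1 h, against 1.93%, and 0 met the study's cut-off, against 0.381%. The count of 1 was 0 without C378 or without water 3 h array C365 or C369, 2 without C372 or C373, and 3 without C374.

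Although the estimates after saccharin were larger, the difference between tastes was not established. The interaction, the change with time after saccharin minus that after water, was 0.23 for Col1a1 (standard error 0.17), 0.32 for Col1a2 (0.23) and 0.28 for Col3a1 (0.17). The 95% intervals were -0.12 to 0.58, -0.16 to 0.80 and -0.084 to 0.64. No collagen passed, against 0% of probe sets, and 0 of 25 had an unadjusted p under 0.05 in limma, against 2.96%. The values without C372 were 0.12, 0.12 and 0.14, and without C368 they were 0.31, 0.47 and 0.38, with 2 genes at an unadjusted p under 0.05. The 2.96% belongs to the fit of all arrays, and the share without C368 is not given here. The count of collagens with an interaction above 0 was 18 of 25, with a median of 0.039 beside 0.0061 over all probe sets.

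**Figure D2:**
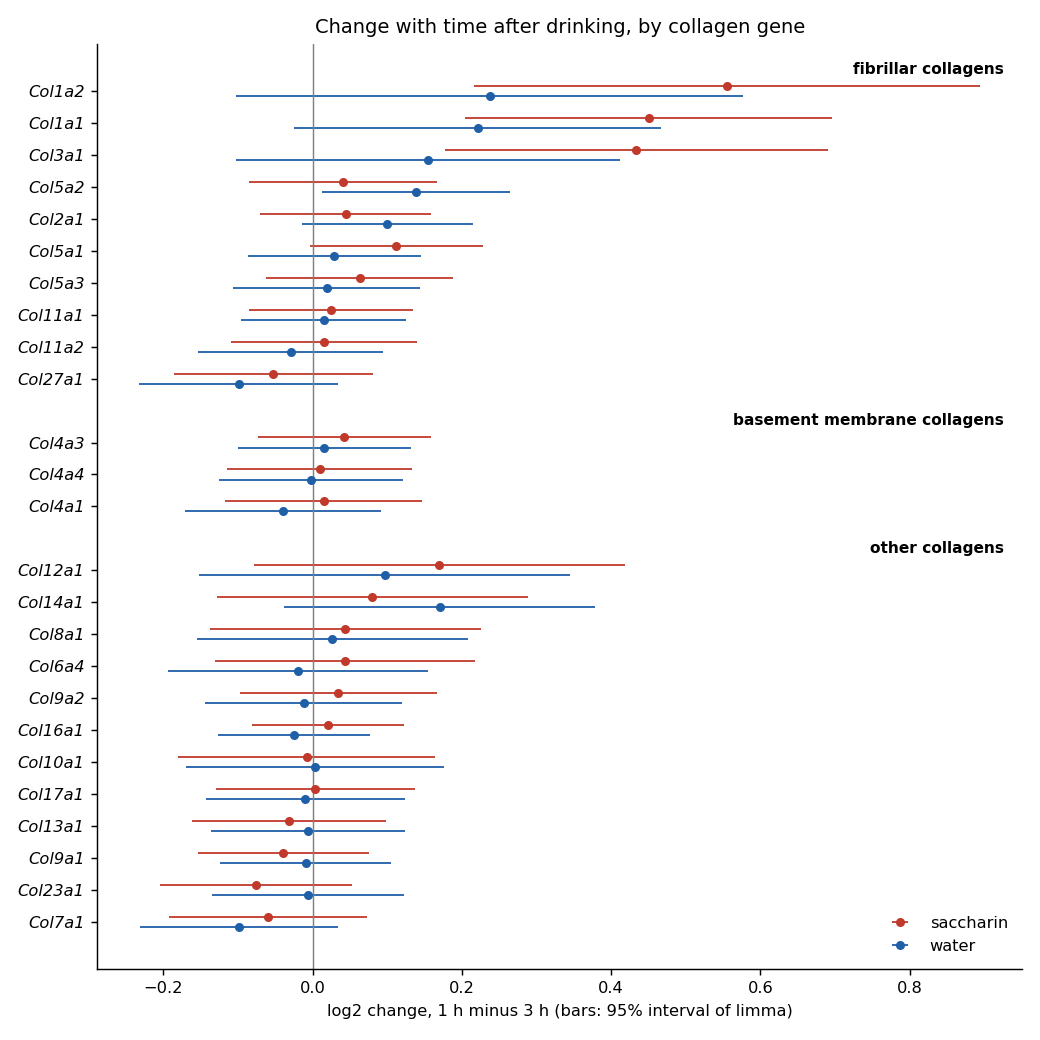
Log2 change, 1 h minus 3 h (horizontal axis), of each of the 25 collagen genes after saccharin (red) and after water (blue), with 95% intervals from limma, grouped into fibrillar, basement membrane and other collagens. The intervals of Col1a1, Col1a2 and Col3a1 after saccharin and of Col5a2 after water lie above 0, and all others include 0.

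No collagen passed the test between tastes. At 1 h, 0 of 25 collagens passed in limma (0% of probe sets did) and 0 had an unadjusted p under 0.05, against 3.06%. The smallest p-values belonged to Col5a2, at -0.12 (standard error 0.060, unadjusted p = 0.0549), Col5a1, at 0.094, and Col23a1, a transmembrane collagen, at -0.059. At 1 h Col1a1, Col1a2 and Col3a1 differed between tastes by 0.044, 0.063 and 0.060, with standard errors of 0.12 to 0.16. Without C378 these differences were 0.11, 0.11 and 0.092. Of the type V chains, Col5a2 and Col5a1 thus had estimates of opposite sign, and neither passed the test. Col5a3, also a type V chain, was at -0.018, and at 0.023 without C378.

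At 3 h, 0 of 25 collagens passed (0% of probe sets did) and 0 had an unadjusted p under 0.05 in limma, against 3.37%. Col3a1 was at -0.22 (standard error 0.12, unadjusted p = 0.0902), Col1a1 at -0.19 (0.12) and Col1a2 at -0.26 (0.16), lower after saccharin. These 3 estimates rested on C372, without which they were -0.083, -0.071 and -0.053. Without C368 they were -0.32, -0.26 and -0.41, and all 3 had an unadjusted p under 0.05, where the share of all probe sets is not given here. Averaged over both times, 0 of 25 passed (0% of probe sets did) and 0 had an unadjusted p under 0.05, against 3.39%, and the smallest p-values were those of Col5a2 (-0.074, standard error 0.042), Col12a1 (-0.12, 0.084) and Col5a1 (0.053, 0.039). The estimate of Col12a1 was -0.073 without C378 and -0.080 without C372.

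A few collagens varied more over the arrays than the rest. The SD over the 16 arrays was 0.33 for Col1a2, 0.25 for Col1a1 and 0.25 for Col3a1, which placed them 86th, 205th and 215th of 15209 probe sets. Col12a1 had an SD of 0.20 and Col14a1 of 0.16. These 5 genes were above the 90th percentile of all probe sets (0.148). The median SD was 0.083 over the 25 collagens and 0.094 over all probe sets, and 9 of 25 collagens exceeded the latter. Only 4 of the 25 had a mean level above the median of all probe sets, 6.15, and Col4a1 stood at 5.65. Whether low levels held down the SDs and changes of the others was not tested.

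**Figure D3:**
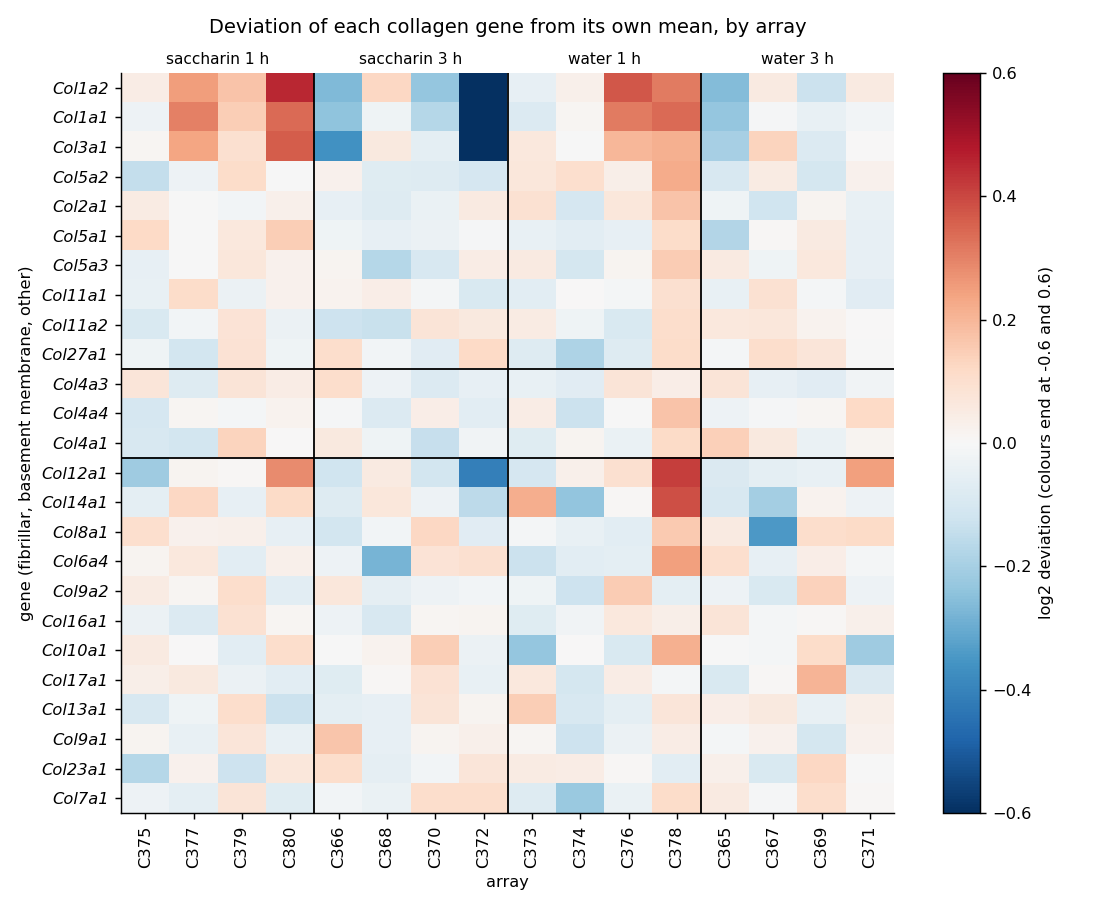
Deviation of each collagen gene (rows, by class and then by change with time) from its own mean over the 16 arrays (columns, by group), in log2 units, with red for above and blue for below and colours that end at -0.6 and 0.6. Col1a1, Col1a2, Col3a1 and Col12a1 are blue in C372, and the column of C378 is red for most genes, 11 of which have their highest value there.

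After the group means were subtracted, Col1a1 and Col1a2 correlated at r = 0.94, Col1a2 and Col3a1 at 0.92 and Col1a1 and Col3a1 at 0.88 over the 16 arrays. The median over all 300 pairs of collagens was 0.17. Without C372 the 3 correlations were 0.92, 0.88 and 0.83. With the mean of these 3 genes, the other 7 fibrillar chains ranged from -0.32 for Col5a3 to 0.65 for Col11a1, with Col5a2 at 0.33, Col5a1 at 0.18, Col27a1 at -0.11, Col2a1 at -0.21 and Col11a2 at -0.30. The basement membrane chains were at 0.37 for Col4a4, 0.0052 for Col4a3 and -0.033 for Col4a1. Of the fibril-associated chains, Col12a1 was at 0.80 and Col14a1 at 0.43. The points share the arrays and the normalization, and these values are a description of the 16 arrays with no test. Col3a1 and Col5a2 are neighbours on the chromosome, as are Col4a3 and Col4a4.

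Outside the collagens, the genes whose within-group deviations were most like the mean of Col1a1, Col1a2 and Col3a1 were Fn1 (fibronectin, r = 0.94), Slc22a8 (an organic anion transporter, 0.92), Or4a66b (annotated as an odorant receptor, 0.92), Insig2 (a regulator of sterol synthesis, 0.91), Ogn (osteoglycin, 0.89), Fmod (fibromodulin, 0.88), Dcn (decorin, 0.88) and Cpxm2 (0.87). The probe set of Or4a66b is dim, with a mean of 2.73, below the 25th percentile of all probe sets (4.04). The 99th percentile over 14472 genes was 0.707 and the median 0.050. Likeness within groups did not go with a change in time for every one of them, as Fn1 changed by 0.076 and Insig2 by -0.030, with adjusted p = 0.733 and 0.879 in limma.

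Markers of the leptomeninges and of fibroblasts were set beside Col1a1, Col1a2 and Col3a1. Of the 13 measured markers other than collagens (of 15 listed), all 13 had an estimate above 0 for 1 h minus 3 h, 9 at an unadjusted p under 0.05 (against 6.25% of all probe sets), and none passed the adjusted threshold in limma, with a median of 0.25. Igf2, a growth factor of the meninges, changed by 0.29 (adjusted p = 0.107), the proteoglycan Ogn by 0.42 (0.150) and Dcn by 0.34 (0.178). The mean over the 13 markers ranged from 6.24 to 6.43 on the saccharin 1 h arrays, 5.78 to 6.33 at saccharin 3 h, 6.19 to 6.45 at water 1 h and 5.93 to 6.36 at water 3 h. Within groups it correlated with the mean of Col1a1, Col1a2 and Col3a1 at r = 0.91, and at 0.83 without C368 and C372, the 2 arrays farthest from its median. The marker mean correlated within groups with Col12a1 at r = 0.79 and with Col4a1 at -0.11. With this marker mean as a covariate, the change with time over both tastes was 0.11 for Col1a1, 0.054 for Col1a2 and 0.058 for Col3a1, and 0 of 25 collagens had an unadjusted p under 0.05 and were higher. The marker mean was itself higher at 1 h and followed these 3 genes within groups, so the covariate would shrink their changes whatever the cause. The part of the marker cells in these changes was not tested.

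**Figure D4:**
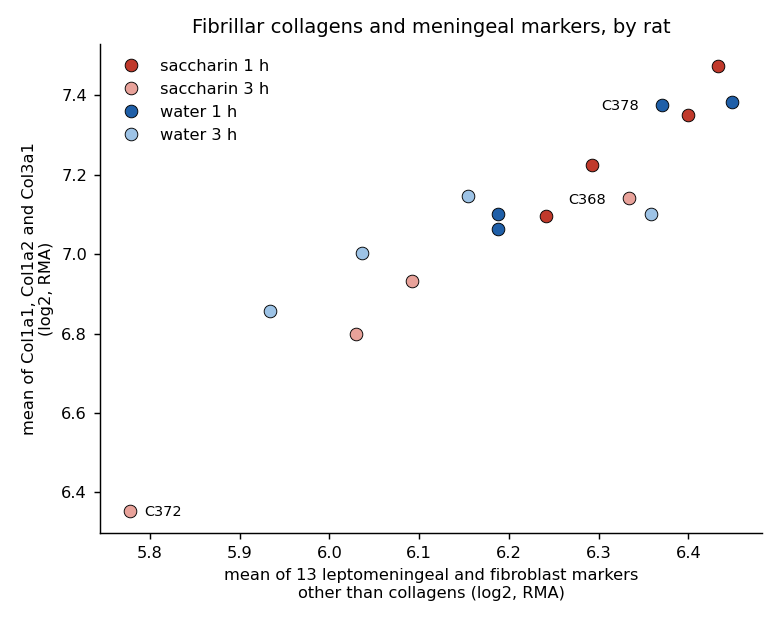
Mean log2 level of Col1a1, Col1a2 and Col3a1 (vertical axis) against the mean log2 level of 13 leptomeningeal and fibroblast markers other than collagens (horizontal axis), with 1 point per rat, coloured by group. C372 lies lowest on both axes. The saccharin 3 h array C368 and the water 3 h array C371, at 6.33 and 6.36 on the horizontal axis, lie among the 1 h arrays.

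Markers of the vessel itself had smaller and mixed estimates. Of 8 endothelial markers, 3 had an unadjusted p under 0.05 and were lower at 1 h (against 5.77% of all probe sets), namely the receptor Tek (-0.15), the adhesion molecule Pecam1 (-0.094) and Esam (-0.12), and 0 passed in limma, with a median of -0.033. Of the same 8 markers, 4 were above 0, namely Emcn (0.095), Cdh5 (0.083), Kdr (0.055) and Flt1 (0.019). Of 8 mural markers, 1 was higher (against 6.25%), the receptor Pdgfrb (0.13), with Kcnj8 at 0.090, Myh11 at 0.069 and a median of 0.020. Only 4 of the 8 mural markers were above 0, and Cnn1 (-0.051), Rgs5 (-0.023), Acta2 (-0.019) and Abcc9 (-0.015) were below it. The endothelial marker mean correlated within groups with Col4a1 at r = 0.50, with Col12a1 at 0.85 and with the mean of Col1a1, Col1a2 and Col3a1 at 0.59. The mural marker mean gave 0.28, 0.44 and 0.32 in the same order.

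The label of meninges and vessels was not tested, as every probe set gives a level and the presence of marker genes does not decide it. The array means ranged from 5.78 to 6.45 for the 13 leptomeningeal and fibroblast markers. For the 8 endothelial markers they ranged from 6.27 to 6.51, and for the 8 mural markers from 6.05 to 6.25. The neuronal genes Snap25 and Slc17a7 stood at 11.6 and 10.9. Of the choroid plexus markers 0 of 5 had an unadjusted p under 0.05, and the mean of the 5 ranged from 3.42 to 3.63 over the 16 arrays. The smallest p-values there were those of Kl (0.063), Clic6 (-0.059) and Ttr (0.057). Of the other cell type lists, 1 of 6 neuronal markers (Neurod6, -0.13), 1 of 5 astrocyte markers (Aldh1l1, -0.093) and 1 of 4 microglia markers (Cx3cr1, -0.13) had an unadjusted p under 0.05, all lower at 1 h, against 5.77% of all probe sets. No oligodendrocyte marker of 3 did, and 1 of 3 red blood cell markers was higher (Hbb, 0.36), against 6.25%. The next genes of these lists were Snap25 (-0.024) and Slc17a7 (-0.025) for neurons, Aqp4 (-0.049) and Gfap (0.074) for astrocytes, and Tmem119 (-0.084) and Csf1r (-0.021) for microglia. The oligodendrocyte genes were Mobp (-0.081), Mbp (0.033) and Mog (-0.022), and the other red cell genes Alas2 (0.17) and Slc4a1 (-0.011). None of these passed the adjusted threshold in limma.

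Genes that make and process collagen chains did not pass the test. Of 17 measured genes of chain modification and folding, such as the prolyl hydroxylases, 0 had an unadjusted p under 0.05 in either direction. Over all probe sets, 6.25% had such a p and were higher at 1 h, and 5.77% were lower. None of the 17 passed in limma, against 1.01% of all probe sets, and the median change was 0.014. The smallest p-values there were those of P4ha3 (-0.18), Plod2 (0.075) and Plod3 (0.060). Of 12 genes of procollagen cleavage and crosslinking, again 0 had an unadjusted p under 0.05, beside the same shares of all probe sets. Lox, which crosslinks fibres, changed by 0.078 (unadjusted p = 0.0598 in limma). Tgm2, a transglutaminase, changed by -0.093 and Pcolce, which enhances procollagen cleavage, by 0.11.

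Proteins that bind the fibres held 1 call, and differences between lists were not tested. Of 16 measured genes, 14 were above 0 and 5 were higher at an unadjusted p under 0.05, against 6.25% of all probe sets, with a median of 0.10. Aspn, the small leucine-rich proteoglycan asporin, was the 1 gene that passed (against 1.01% of all probe sets), with a change of 0.27 (standard error 0.062, adjusted p = 0.0453 in limma). Its probe set is dim, with a mean of 3.26, and lies among those left out when probe sets at or below 5.11 are removed. Ogn, Dcn, Fbln1 (0.15) and Bgn (0.22) made up the other 4, and Ogn and Dcn are also among the leptomeningeal markers.

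Over all probe sets, 6.25% were higher and 5.77% lower at 1 h with an unadjusted p under 0.05, and the counts of the next lists stand beside these shares. Of 9 basement membrane partners, 2 had an unadjusted p under 0.05 and were higher at 1 h, the laminin chain Lamc1, by 0.15 (adjusted p = 0.0684 in limma), and the nidogen Nid2, by 0.11, with Lama1 at 0.089 and 0 past the adjusted threshold. Of 9 collagen receptors, 1 was lower, the integrin chain Itga11 (-0.097), while Itgb1 was at -0.049 and Ddr1 at -0.058. Of 12 collagen-degrading enzymes and inhibitors, 3 were higher, namely the inhibitor Timp3 (0.14), the membrane protease Mmp14 (0.28) and the cathepsin Ctsk (0.13), and 1 was lower, the protease Mmp16 (-0.16). Of 11 genes of TGF-beta signalling, 2 were higher, Smad2 (0.11) and the coreceptor Tgfbr3 (0.17), and 3 were lower, Smad3 (-0.13), Tgfb1 (-0.12) and Tgfb2 (-0.14). None of the receptors, enzymes or signalling genes passed the adjusted threshold.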

How the data were processed

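Affymetrix RaGene 1.1 ST arrays of 16 rats had been quantile normalized and summarised by RMA by the authors, with the affy package, and the deposited log2 values were used as they are. Of 28826 probe sets, 15209 are paired with 1 gene in the array annotation, 306 with several and 13311 have no entry. The 25 collagen symbols match current RefSeq symbols by Entrez ID. Annotation of the study's assembly, RGDv3.4, was not used here, and the only coordinates given are those of the promoter windows in GRCr8.

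A limma model (version 3.58.1, R 4.3.3) of 4 group means was fitted over all 16 arrays, with Benjamini-Hochberg adjustment over 15209 probe sets and a threshold of 0.05. Tests were two-sided. The fit was tested on simulated data. Exact permutation tests used scipy 1.17.1. Replicates are separate rats, and their number, 4 per group, limits the precision.

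The members and lists were chosen with earlier results of these data known. Values are given for Col1a1, Col1a2 and Col3a1, the 8 collagens with the smallest p for time, the 3 with the smallest p for each other comparison, the 3 genes with the smallest p in each list and the 8 genes most like those chains. Col4a1, Col4a3, Col4a4, Col5a3, Col6a4, Col8a1, Col11a1, Col11a2 and Col27a1, and some further genes of the lists, lie outside this rule and were chosen after their values were seen. Alternatives covered the probe sets tested, dim probe sets (a mean at or below 5.11), normalization, the prior, array weights, the arrays fitted, the probe set per gene, the marker covariate and each array left out in turn.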

Additional observations from a re-analysis of the deposited data

Results flagged for a closer look

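Among 100 groups of 4 arrays, 1 for each of 25 genes and 4 groups, 4 held an array whose gap to the nearest other was large against the whole range of the group, where about 1 in 20 groups would by chance. Col1a1 stood at 6.99 on water 3 h array C365, against 7.17 to 7.21 on the other 3. Col5a1 stood at 5.74 on water 1 h array C378, against 5.57 to 5.59. Col8a1, a short-chain collagen of vessel walls and other tissues, stood at 3.83 on water 3 h array C367, against 4.23 to 4.29. Col12a1 stood at 5.48 on water 3 h array C371, against 5.15 to 5.19. No cause was tested.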

How the results depend on the processing

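Of 713 values of single genes under the alternatives, 705 had the direction and the side of the threshold of the reported value. None of the 28 reported results passed the threshold, so a lost pass could not occur, and the size of a change was not counted. Col1a2 for taste at 3 h, for example, ranged from -0.41 to -0.053 and kept its direction. Col1a1 over both tastes also passed with dim probe sets left out (adjusted p = 0.0396, so that 1 collagen passed in place of 0), where 9496 probe sets were tested in place of 15209. The number of collagens that passed over both tastes ranged from 0 to 3 with 1 array left out. With the leptomeningeal marker mean as a covariate, the changes of Col1a2 and Col3a1 after water were -0.028 each, and 0 collagens were higher at an unadjusted p under 0.05 over both tastes, after saccharin or after water, while 1 differed by taste at 1 h and 1 at 3 h. The cause was not tested. After water, the count higher was 0 with a trend and robust prior, 0 with array weights and 3 with only the arrays of these 2 groups. For taste at 1 h the count was 1 with dim probe sets left out and 1 with array weights. With 1 array left out, the counts at an unadjusted p under 0.05 ranged from 0 to 3 for higher after water, 0 to 2 for lower after water and for lower over both tastes, 0 to 1 for taste at 1 h, 0 to 3 at 3 h, 0 to 1 over both times and 0 to 2 for the interaction. The shares of all probe sets under the alternatives are not given here, so these counts cannot be set against them. No paired analysis was possible because no array number is shared between groups. The alternatives were run for the collagens, and the call of Aspn was not tested under them, apart from its probe set being left out with the dim ones.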
